A study of Homo sapiens with 10 samples.

Results

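S100 calcium-binding proteins were followed in MDA-MB-231 breast cancer cells and in tumour cells recovered after treatment with SM-164. The members were 10 genes chosen by name, S100A2, S100A3, S100A4, S100A6, S100A8, S100A10, S100A11, S100A13, S100A14 and S100P, of 19775 genes with a probe set on the array. The choice was made with earlier results of these data known. Counts of members set beside shares of all genes therefore describe them and test nothing. The members were read by all 14 probe sets annotated to one of these genes alone, of 41091 probe sets annotated to a single gene.

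MDA-MB-231 is an established human breast cancer line of the triple-negative, mesenchymal-like kind, and SM-164 is a Smac mimetic, a small molecule that antagonises inhibitor of apoptosis proteins. Parental cells were kept in standard culture, received no drug in mice and are labelled sensitive to SM-164; they gave 2 arrays. The other 4 lines came from xenografts of the same cells in SCID mice, immunodeficient animals without mature T and B cells that keep their myeloid cells. These mice received SM-164 intravenously at 5 mg/kg on 5 days per week for 2 weeks, the tumours regressed and regrew, and cells were isolated from the regrown tumours, with 2 arrays each. T2 and T3 are labelled resistant to SM-164, and T6 and T8 sensitive. A xenograft without SM-164 was not analysed here, so growth in mice, the drug and the isolation of cells cannot be told apart when tumours are set against the single parental line. Neither the interval between isolation and RNA extraction nor a separate culture behind each array of a line is stated in the sources used here, so p-values over arrays measure the spread between arrays of a line, which may be technical.

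S100 proteins are small proteins with a pair of EF-hand loops that bind calcium, after which most of them open a surface for a partner protein such as an annexin, a myosin chain or ezrin. They act mostly as dimers inside the cell, and several are released and bind cell-surface receptors such as AGER, the receptor for advanced glycation end products, and TLR4. In human cells most S100 genes lie in a cluster on the long arm of chromosome 1 together with genes of the outer skin layer, while S100P lies apart. In breast cancer S100A4 is known for its link to motility and metastasis, and S100A2 as a gene of normal basal epithelium.

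The sequences before the starts of 5 members are shown because these genes moved most and because S100A2, S100A3, S100A4 and S100A6 lie close together yet moved by different amounts. Each is the 250 bases before the outermost annotated start in RefSeq (GRCh38.p14), 5′ to 3′ on the strand of the gene, with capitals marking matches on either strand to the motifs named after them. The S100A2 window is chr1:153565845-153566094 on the minus strand, and the S100A3 window is chr1:153549259-153549508 on the minus strand. For S100A4 it is chr1:153545807-153546056 and for S100A6 chr1:153535992-153536241, both on the minus strand, and for S100P chr4:6693628-6693877 on the plus strand.
S100A2: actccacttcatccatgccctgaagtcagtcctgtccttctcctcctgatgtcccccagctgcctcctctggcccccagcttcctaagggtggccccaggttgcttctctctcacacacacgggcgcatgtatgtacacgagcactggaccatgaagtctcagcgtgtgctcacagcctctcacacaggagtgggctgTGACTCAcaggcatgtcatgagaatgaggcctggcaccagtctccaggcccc
S100A3: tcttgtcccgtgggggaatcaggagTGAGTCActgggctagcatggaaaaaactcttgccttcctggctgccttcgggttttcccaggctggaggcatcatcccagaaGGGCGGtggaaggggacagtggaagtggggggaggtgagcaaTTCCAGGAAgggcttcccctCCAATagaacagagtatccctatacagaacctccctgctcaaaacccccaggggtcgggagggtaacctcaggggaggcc
S100A4: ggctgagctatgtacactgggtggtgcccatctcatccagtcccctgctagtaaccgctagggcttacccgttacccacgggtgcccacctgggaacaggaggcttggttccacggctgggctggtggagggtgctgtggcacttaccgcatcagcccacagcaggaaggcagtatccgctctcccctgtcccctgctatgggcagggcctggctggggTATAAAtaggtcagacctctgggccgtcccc
S100A6: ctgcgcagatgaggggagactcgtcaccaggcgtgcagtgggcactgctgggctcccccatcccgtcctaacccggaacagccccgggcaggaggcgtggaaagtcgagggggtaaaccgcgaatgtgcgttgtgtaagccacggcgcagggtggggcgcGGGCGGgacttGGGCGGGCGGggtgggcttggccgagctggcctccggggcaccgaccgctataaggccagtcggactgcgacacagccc
S100P: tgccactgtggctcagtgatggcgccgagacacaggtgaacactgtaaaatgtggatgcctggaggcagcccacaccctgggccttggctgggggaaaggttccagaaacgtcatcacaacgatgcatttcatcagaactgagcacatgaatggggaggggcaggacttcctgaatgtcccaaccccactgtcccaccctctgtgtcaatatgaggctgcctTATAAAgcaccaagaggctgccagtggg

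In the S100A4 window a TATA box, searched as TATAAA, begins 31 bases before the start, and in the S100P window one begins 28 bases before it; 10.7% of 35116 RefSeq windows of this length hold that motif. S100A2 holds an AP-1 motif (TGANTCA) 52 bases before its start and S100A3 one at 225 bases, a motif in 6.57% of windows. The S100A3 window also holds a GC box (GGGCGG, in 42.6% of windows) at 142 bases, a GAS motif (TTCNNNGAA, bound by STAT proteins, in 6.57%) at 100 bases and a CCAAT box (CCAAT, in 32.0%) at 80 bases. S100A6 holds only GC boxes, at 90, 79 and 75 bases, the last pair overlapping each other. The NF-kB motif, present in 9.96% of windows, was matched in none of the 5 windows shown. No motif of this short list was found in all 5 windows, and the 4 neighbours differed in what they held. A match is a run of letters, and binding was not measured.

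The authors' values are log2 expression, and a probe set's level depends on its probes, so levels are compared between arrays and not between genes. Of the 10 members, 9 reached log2 5 on at least 2 arrays and were tested among 14929 genes. A gene was called where limma's moderated test gave a Benjamini-Hochberg adjusted p below 0.05 over all 14929. At its closest, the S100A6 probe set came within 0.505 log2 of an array's highest value. Array medians ran from 5.43 to 5.57. VIM, CD44, KRT8, KRT18 and EGFR were present in every line, with EGFR in T6 the lowest mean at 10.65. PGR stayed below log2 5 on every array. By line mean ESR1 lay between 6.56 and 6.71 and ERBB2 between 8.83 and 9.26, both above the array medians. MDA-MB-231 is known for VIM, CD44 and EGFR with low ESR1, PGR and ERBB2. Whether ESR1 and ERBB2 were low cannot be read from these levels. Where a gene is lower in such a sample, fewer cells that express it and less RNA per cell cannot be told apart.

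**Figure D1:**
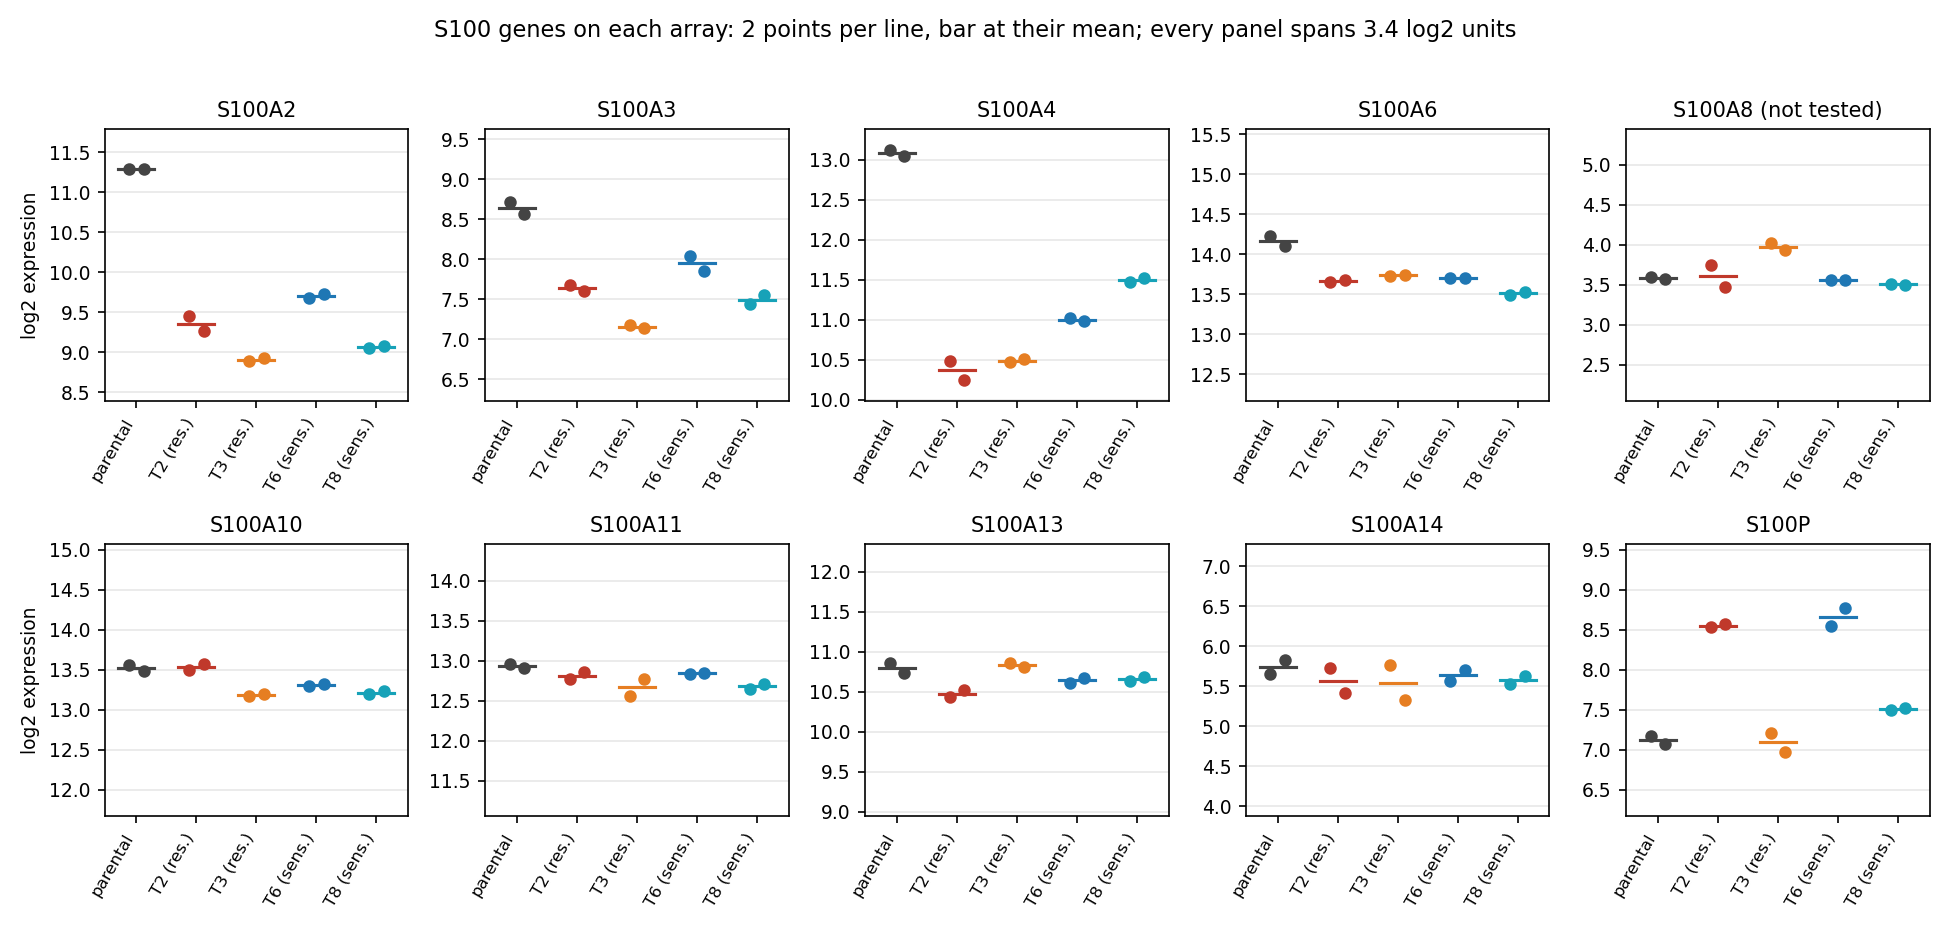
Log2 expression of the 10 S100 genes (vertical axis) on each of the 10 arrays, by line (horizontal axis), with a bar at the mean of a line's 2 arrays. Every panel spans the same number of log2 units. S100A2, S100A3, S100A4 and S100A6 sit highest in parental cells, S100P sits highest in T2 and T6, and the S100A14 arrays of neighbouring lines overlap.

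When the 4 tumours were averaged and set against parental cells, 8 of the 9 tested members were called, 7 lower and 1 higher. Of all genes tested, 42.3% were called, 16.8% lower and 25.5% higher. Of the 12 tested probe sets of the members, 9 were called, 8 lower and 1 higher, where 36.5% of all probe sets were called (14.4% lower, 22.1% higher). The median difference of the 9 members was -0.21, against 0.00 over all genes. The split of all calls depended on scaling, with 60.2% of called genes higher as deposited, 48.3% after quantile normalisation was repeated and 71.9% with each array centred on its median. Under the median centring 5 members were called, 1 higher and 4 lower, where 38.2% of all genes were called, and S100A10, S100A11 and S100A13 were no longer called.

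S100A4, known as metastasin and as a partner of the non-muscle myosin heavy chain MYH9, fell most. Its log2 values were 13.12 and 13.05 in parental cells, 10.49 and 10.25 in T2, 10.47 and 10.51 in T3, 11.02 and 10.99 in T6, and 11.47 and 11.52 in T8. Every tumour array lay below both parental arrays, and the arrays of T2 and T3 lay below those of T6 and T8. The mean difference from parental cells was -2.25 ± 0.06 (SE; adjusted p = 1.61e-12), a level 4.74-fold lower. It had rank 17 among 14929 genes ordered from the most negative difference. By tumour, S100A4 was 6.58-fold lower in T2, 6.05-fold in T3, 4.24-fold in T6 and 3.01-fold in T8, each called. It was read by 1 probe set (203186_s_at), of the kind whose probes can match more than one transcript, and in RefSeq the gene overlaps S100A5 and a non-coding gene. Whether those transcripts add to its signal was not tested.

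S100A2 fell by a similar amount. It read 11.29 and 11.29 in parental cells, 9.45 and 9.27 in T2, 8.89 and 8.93 in T3, 9.67 and 9.72 in T6, and 9.06 and 9.08 in T8. No line overlapped another, and the order was parental, T6, T2, T8, T3 from high to low. The difference of the tumour mean was -2.03 ± 0.06 (SE; adjusted p = 3.65e-12), 4.08-fold lower and at rank 22 in that order, and in each tumour it was called, from -1.59 in T6 to -2.38 in T3.

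S100A3, a zinc-binding protein best known from the hair cuticle, kept the same order of lines at a smaller size. Its values were 8.72 and 8.56 in parental cells, 7.68 and 7.61 in T2, 7.18 and 7.14 in T3, 8.05 and 7.85 in T6, and 7.44 and 7.55 in T8. The lines again did not overlap. S100A3 was 2.11-fold lower in the tumour mean (-1.08 ± 0.08, SE; adjusted p = 5.73e-08), from -0.69 in T6 to -1.48 in T3, and was called in each tumour.

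S100A6, or calcyclin, which binds annexins and the adaptor CACYBP, fell less and nearly evenly by its brighter probe set. It read 14.23 and 14.10 in parental cells, 13.66 and 13.68 in T2, 13.73 and 13.74 in T3, 13.70 and 13.71 in T6, and 13.50 and 13.53 in T8. All 8 tumour arrays lay below both parental arrays, and T8 lay below the other tumours. The difference was -0.51 ± 0.04 (SE; adjusted p = 1.41e-07), 1.42-fold lower, and it was called in each tumour. A second, much dimmer S100A6 probe set (228923_at) had a mean of 6.66 in parental cells and between 5.71 and 5.98 in the tumours, a difference of -0.88 ± 0.11 (adjusted p = 1.64e-05 over 33341 probe sets). The brighter probe set came within 0.505 log2 of an array's highest value. Whether the full size of a fall can be read so near the top was not tested.

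S100P, which binds ezrin and can act through AGER outside the cell, was the only member that rose. Its values were 7.18 and 7.08 in parental cells, 8.54 and 8.57 in T2, 7.21 and 6.97 in T3, 8.54 and 8.77 in T6, and 7.49 and 7.52 in T8. T2 and T6 were high, T8 lay a little above parental cells, and the T3 arrays enclosed the parental ones. The tumour mean, 0.82 ± 0.08 above parental cells (SE; adjusted p = 2.01e-06), therefore does not describe T3. S100P was 2.69-fold higher in T2 (adjusted p = 1.01e-07), 2.89-fold higher in T6 (adjusted p = 5.95e-08) and 1.30-fold higher in T8 (adjusted p = 0.0108). In T3 the difference was -0.04 ± 0.11 (adjusted p = 0.834).

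The other members on chromosome 1 differed less. S100A10, which does not bind calcium and pairs with annexin A2 as a docking point for plasminogen, read 13.56 and 13.48 in parental cells, 13.50 and 13.57 in T2, 13.17 and 13.20 in T3, 13.30 and 13.32 in T6, and 13.19 and 13.24 in T8. T2 was at the parental level (0.02 ± 0.05, adjusted p = 0.836) while the other tumours lay below it, by -0.34 in T3, -0.21 in T6 and -0.30 in T8, each called. The mean difference was -0.21 ± 0.04 (adjusted p = 0.00076), and with the arrays centred on their medians it was -0.14 with an adjusted p of 0.0988, the highest of 18 alternatives. A dimmer probe set of S100A10 (238909_at) had a mean difference of -0.14 ± 0.10 (adjusted p = 0.301), with -0.41 in T3 and -0.36 in T8 called and 0.18 in T2 and 0.02 in T6 not called, so for T6 the probe sets disagreed.

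S100A11, a partner of annexin A1, read 12.96 and 12.90 in parental cells, 12.77 and 12.86 in T2, 12.56 and 12.77 in T3, 12.83 and 12.85 in T6, and 12.64 and 12.71 in T8. The 8 tumour arrays lay below both parental arrays by small margins, and the difference was -0.18 ± 0.05 (adjusted p = 0.0125). It was called in T3 and T8 and not in T2 or T6. Over the alternatives its adjusted p ran up to 0.248, and without parental replicate 1 it was 0.0983. RefSeq names 10 pseudogenes of S100A11, and whether their transcripts add to the signal was not tested.

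S100A13, which accompanies FGF1 and IL1A out of the cell, was called lower in T2 and in no other single tumour. It read 10.85 and 10.73 in parental cells, 10.43 and 10.52 in T2, 10.85 and 10.81 in T3, 10.60 and 10.67 in T6, and 10.63 and 10.68 in T8. Only T3 reached the parental arrays. The difference in T2 was -0.32 ± 0.07 (adjusted p = 0.00155). The tumour mean, -0.14 ± 0.05 (adjusted p = 0.0382), lost its call without parental replicate 1 (-0.08) and also without T3 replicate 2, T6 replicate 1 or either T8 array, with adjusted p up to 0.611 over the alternatives. Its second probe set (213481_at) gave 0.06 ± 0.12 (adjusted p = 0.748), and in RefSeq S100A13 overlaps S100A1 and CHTOP.

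S100A14, an epithelial family member, ran from 5.33 to 5.83 over the 10 arrays with neighbouring lines in the order of means always overlapping, and no comparison of it was called (tumour mean -0.16 ± 0.13, adjusted p = 0.339). S100A8, the neutrophil and monocyte protein that forms calprotectin with S100A9, lay below log2 5 on every array, between 3.47 and 4.02, and was not tested. S100A9 and S100A12 of the same cells were also below that level. Of 14 measured myeloid markers in a list of 15, LYZ, PTPRC, TYROBP, CXCR2 and FCN1 were below log2 5 on every array. The summed level of the list was log2 11.2 to 11.3 in parental cells and 10.1 to 11.1 in tumours. Its largest parts in parental cells, a cultured line, were LAPTM5 (mean 10.66) and FPR1 (mean 8.30). The sum therefore does not measure the number of myeloid cells. In the tumour mean 4 of its 9 tested genes were called, all lower, where 16.8% of all genes were called lower. The called myeloid genes were led by FPR1 (-1.66 ± 0.09), CSF1R (-0.68 ± 0.11) and LAPTM5 (-0.61 ± 0.06, not called in T8). Their part in the S100 values was not tested.

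Counted by tumour, 6 members were called in T2 (1 higher, 5 lower; background 33%, of which 17.5% of genes were higher and 15.5% lower). In T3 the count was 6, all lower (37.9% of all genes, 22.1% higher and 15.8% lower), and in T6 it was 6 with 1 higher and 5 lower (34.5%, with 20.7% and 13.7%). The T6 count over all genes, 5149, was 3255 without T6 replicate 1, 3299 without T6 replicate 2 and 3422 without parental replicate 2. In T8 it was 7, with 1 higher and 6 lower (43.8%, with 28.7% and 15.1%). These comparisons share the parental arrays. S100A2, S100A3, S100A4 and S100A6 were called lower in each of the 4 tumours, as were 5.41% of all genes, and no member was called higher in each, against 8.87%. For 5 members, these 4 and S100A11, all 8 tumour arrays lay below both parental arrays, against 12.4% of genes; for none did all lie above, against 15.7%. Among all called genes the share higher was 52.9% to 65.6% in the single tumours as deposited, 47.5% to 49.4% after repeated quantile normalisation and 58.4% to 79.2% after median centring.

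**Figure D2:**
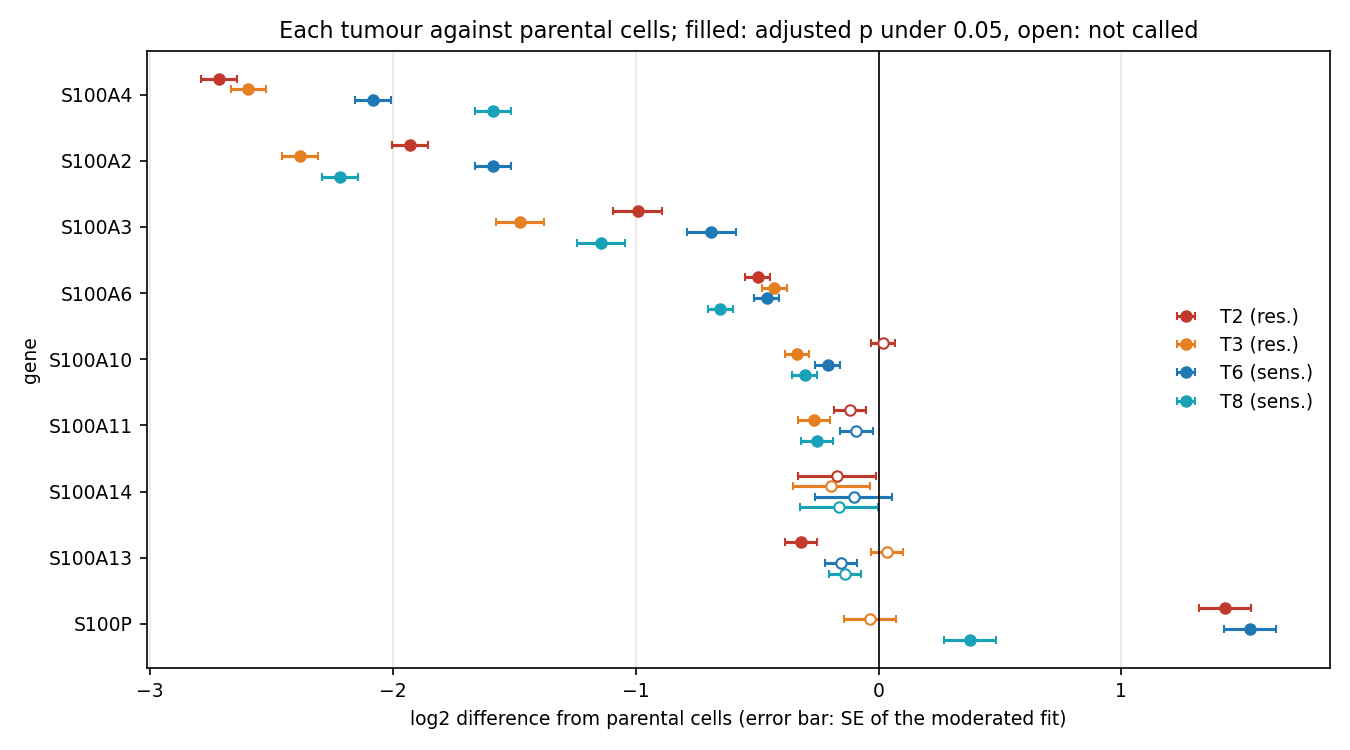
Log2 difference of each tumour from parental cells (horizontal axis) for the 9 tested S100 genes (vertical axis), with the SE of the moderated fit as error bar, filled where the adjusted p is below 0.05. All 4 points of S100A4, S100A2, S100A3 and S100A6 lie left of 0, and the S100P points of T2 (1.43) and T6 (1.53) lie apart from those of T3 (-0.04) and T8 (0.38).

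The tumours also differed from each other. In a moderated F test over the 4 tumours, 7 of 9 members were called, against 41.7% of all genes; S100A11 (adjusted p = 0.0819) and S100A14 (adjusted p = 0.957) were not. By probe set 8 of 12 were called, against 34.6% of all. The tumour means spanned 1.56 log2 for S100P, 1.13 for S100A4, 0.79 for both S100A2 and S100A3, and 0.22 to 0.35 for S100A6, S100A10 and S100A13. S100A4 did not follow the order of S100A2 and S100A3: T8 held the highest S100A4 level and, for the other pair of genes, a level above only T3.

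Within the resistant pair, T2 was above T3 in S100P by 1.46 ± 0.11 (adjusted p = 9.61e-08), in S100A3 by 0.49 ± 0.10, in S100A2 by 0.45 ± 0.07 and in S100A10 by 0.35 ± 0.05. T2 was below T3 in S100A13 by -0.35 ± 0.07. These were 5 of 9 members, 4 higher and 1 lower, against 30.8% of all genes (13.9% higher, 16.9% lower). S100A4 differed between them by -0.12 ± 0.07 and was not called (adjusted p = 0.251).

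Within the sensitive pair, T6 was above T8 in S100P by 1.15 ± 0.11 (adjusted p = 9.65e-06), in S100A2 by 0.63 ± 0.07, in S100A3 by 0.45 ± 0.10 and in S100A6 by 0.19 ± 0.05, and below it in S100A4 by -0.49 ± 0.07 (adjusted p = 0.000486). That made 5 of 9 members, 4 higher and 1 lower, where 15.1% of all genes were called (4.66% higher, 10.4% lower). The count fell to 3 without T6 replicate 1, where the share of all genes called fell to 6.3%, and to 3 without T8 replicate 1, where it fell to 7.53%. Over all genes 2253 were called with every array and 940 to 1124 when any one T6 or T8 array was left out. Of all called genes 30.9% were higher as deposited and 48.4% after repeated quantile normalisation. S100P, S100A2 and S100A3 thus stood higher in T2 than in T3 and higher in T6 than in T8, one tumour of each response class.

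The response labels were compared with the tumour as the replicate, 2 resistant against 2 sensitive. No member was called in limma's fit, nor was any other gene, which is 0% of 14929, with a smallest adjusted p of 0.894; 661 genes, among them 1 member, had an unadjusted p below 0.05. That member was S100A4, at -0.82 ± 0.19 (unadjusted p = 0.00887, adjusted p = 0.894), and so it was not called. All 4 resistant arrays, from 10.25 to 10.51, lay below all 4 sensitive arrays, from 10.99 to 11.52. How many of all genes separated the classes in this way was not counted.

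Over arrays, which takes each array as a replicate and so holds only for these 4 tumours, 4 members were called, all lower in the resistant pair, against 19% of all genes (4.76% higher, 14.2% lower). S100A4 differed by -0.82 ± 0.05 (adjusted p = 2.12e-07), 1.77-fold lower. S100A3 differed by -0.32 ± 0.07 (adjusted p = 0.00694), S100A2 by -0.25 ± 0.05 (adjusted p = 0.00468) and S100P by -0.26 ± 0.08 (adjusted p = 0.0293). In these last 3 genes the classes overlapped, since T2 lay above T8. S100P lost its call without T2 replicate 1, T3 replicate 2, T6 replicate 2 or either T8 array, with an adjusted p up to 0.152 over the alternatives. With the line as a random block, no member was called (smallest adjusted p = 0.111), and of all 14929 genes 4 were called. The share of called genes that were higher was 25.1% as deposited, 47.8% after repeated quantile normalisation and 16.2% after median centring. Under repeated quantile normalisation, S100A10 was called higher in the resistant pair and S100P was not called.

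Along chromosome 1 the members that fell most were next to each other. In RefSeq order, S100A6, S100A5, S100A4, S100A3 and S100A2 are adjacent, and their mean differences from parental cells were -0.51, -1.13, -2.25, -1.08 and -2.03. S100A5, which is no member, had means of 6.52 in parental cells and 5.15 to 5.52 in the tumours (-1.13 ± 0.12, adjusted p = 3.34e-06), and its gene overlaps S100A4 in RefSeq, so signal from S100A4 transcripts was not told apart. The next genes moved less: S100A16 by -0.25 ± 0.04 (adjusted p = 0.000135), then S100A14 and S100A13 as given above, and S100A1 by -0.21 ± 0.13 (adjusted p = 0.208). Beyond them CHTOP differed by 0.03, SNAPIN by -0.22 and ILF2 by 0.31, the last pair called. On the other side S100A10 and S100A11 lie together, far from the group of 5 in gene order. Of 29 measured genes outside the S100 family between S100A10 and S100A13, 14 were tested, with a median of -0.15. Where 16.8% of all genes were called lower, 2 of these 14 were called, both lower. They were FLG, which encodes the skin barrier protein filaggrin and carries an S100-like domain (-2.35 ± 0.14, adjusted p = 6.17e-09), and SPRR4, a cornified envelope gene (-0.36 ± 0.12, adjusted p = 0.0292), which was called by tumour in T6 and T8.

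**Figure D3:**
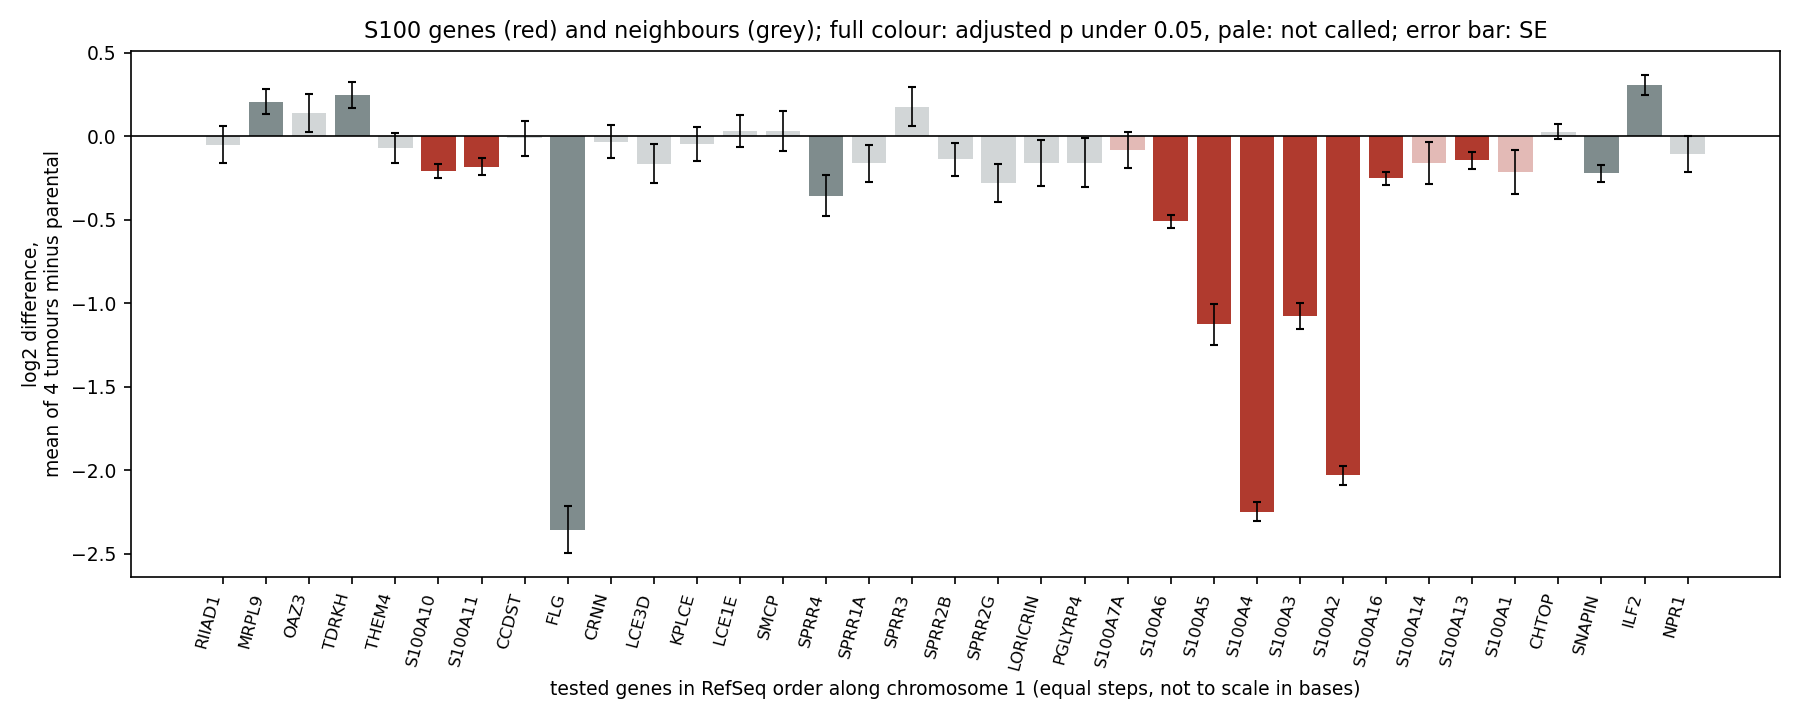
Mean log2 difference of the 4 tumours from parental cells (vertical axis, SE as error bar) for tested genes in RefSeq order along chromosome 1 (horizontal axis, equal steps), S100 genes in red and others in grey, pale where not called. The group from S100A6 to S100A2 and the single gene FLG (-2.35) stand below the other bars, which lie between -0.36 and 0.31.

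Of the other 10 measured S100 genes, 5 were tested and 2 were called in the tumour mean, S100A5 and S100A16, both lower. In that comparison 16.8% of all genes were called lower. S100G, which encodes the vitamin D-dependent protein calbindin-D9k, had means of 5.32 in parental cells, 6.10 in T2, 5.27 in T3, 5.83 in T6 and 5.21 in T8, high in the same tumours as S100P. Its tumour mean was not called (0.29 ± 0.12, adjusted p = 0.0746), and it differed among the tumours (F test, adjusted p = 0.000584). In RefSeq it overlaps CTPS2, whose means were 7.84 in parental cells, 9.31 in T2, 8.02 in T3, 9.09 in T6 and 8.29 in T8. Whether CTPS2 transcripts add to the S100G signal was not tested. S100A7A at -0.08 and S100A1 were not called, and S100A7, S100A9, S100A12, S100B and S100Z stayed below log2 5 on every array. Of 5 measured fused-type S100 genes, a family with an S100 domain joined to long repeats, 2 were tested and FLG alone was called.

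Among 20 tested intracellular partners of S100 proteins, 6 were called higher and 4 lower in the tumour mean, with a median of 0.01. Of all genes tested, 25.5% were called higher and 16.8% lower in that comparison. The main partners named above differed little: annexin A2 (ANXA2) by 0.01 ± 0.04 (adjusted p = 0.862), annexin A1 (ANXA1) by -0.03 ± 0.04 (adjusted p = 0.629), and MYH9 by 0.01 ± 0.05 (adjusted p = 0.845). EZR, which encodes ezrin, differed by 0.11 ± 0.06 (adjusted p = 0.142). ANXA2 reached log2 14.46, close to the highest values of the arrays, 14.69 to 14.77. Whether a change can be read so near the top was not tested. CACYBP, the partner of S100A6, rose by 0.21 ± 0.05 (adjusted p = 0.00239) in the mean, and by tumour it was called in T3 (0.46) and T8 (0.16). The partners that rose most in the mean were ANXA6 (0.68 ± 0.06), called in each tumour, IL1A (0.62 ± 0.14) and FGF1 (0.58 ± 0.08). The last pair are cargo of S100A13, and their means do not describe every tumour. IL1A was at the parental level in T3 (0.00, adjusted p = 0.992). FGF1 was called in T6 (0.60) and T8 (1.38), and in T2 (0.11, adjusted p = 0.461) and T3 (0.24, adjusted p = 0.0838) it was not. DLC1, which binds S100A10, fell most in the mean (-0.85 ± 0.05), lay lowest in T3 (-1.93) and in T2 was not called (0.03, adjusted p = 0.819). SYT1, a calcium sensor of secretory vesicles, was -0.63 ± 0.10 in the mean and was not called in T2 (-0.26, adjusted p = 0.146). ANXA11 fell by 0.31 on the log2 scale and was called in each tumour.

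The plasminogen genes that meet S100A10 and annexin A2 at the cell surface moved both ways, 2 higher and 2 lower of 5 tested. Among all genes the shares called were 25.5% higher and 16.8% lower. SERPINE2, a protease inhibitor, rose by 0.96 ± 0.06, and PLAUR, the urokinase receptor, by 0.44 ± 0.05. The activator PLAU fell (-1.06 ± 0.05), and all 3 of these genes were called in each tumour. PLAT was -0.29 ± 0.05 in the mean, but was called lower in T2, T6 and T8 and higher in T3 (0.81). Of 6 tested receptors, MCAM, a cell adhesion receptor bound by S100A8 and S100A9, alone was called (1.30 ± 0.07, adjusted p = 3.43e-09). Over all genes 42.3% were called. AGER was -0.02 ± 0.10 (adjusted p = 0.872), TLR4 was 0.06 ± 0.10 (adjusted p = 0.657) and BSG, or basigin, -0.02 ± 0.05 (adjusted p = 0.755). Of 3 tested calmodulin genes, CALML5, at -0.36 ± 0.10, was called.

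Epithelial and keratinocyte genes were counted because S100A2 and S100A14 are known from such cells. Of 18 measured genes in a list of 23, 15 were tested, with a median of -0.02. In the tumour mean 2 were called higher (KRT19 at 0.39 and PERP at 0.36) and 2 lower (JUP at -0.45 and DSP at -0.30). Among all genes 25.5% were called higher and 16.8% lower. IVL, KRT16 and SPRR1B stayed below log2 5. The summed level of the list was log2 15.2 in parental cells and 15.1 to 15.4 in the tumours, and its part in the fall of S100A2 was not tested.

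The genes outside the family most like the 4 members with the widest ranges were found by Pearson r over the 10 arrays, among 1135 genes whose line means spanned at least log2 1. The arrays come in pairs from 5 lines, so r describes these lines and carries no test. PYCARD (r = 0.987), TRIM56, TMT1A, ARNT2 and PSMB9 (r = 0.977) were most like S100A4, each highest in parental cells, and 65 candidates had r above 0.9. For S100A2 they were ZBED10P (r = 0.987), DUSP10, TRIM16, CRISPLD2 and CHST15 (r = 0.983), with 98 candidates above 0.9.

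For S100A3 they were MBTPS2 (r = 0.983), FPR1, COXFA4L3, BIN1 and RBM47 (r = 0.976), with 74 above 0.9; FPR1 is also on the myeloid list. S100P was most like DCDC2 (r = 0.990), SLC28A2, SYTL2, CTPS2 and SLC1A7 (r = 0.971), with 57 above 0.9. DCDC2, which encodes a doublecortin-domain protein, had means of 4.66 in parental cells, 7.71 in T2, 4.75 in T3, 8.11 in T6 and 5.54 in T8, the order of S100P over a wider range except that T3 lay just above parental cells.

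**Figure D4:**
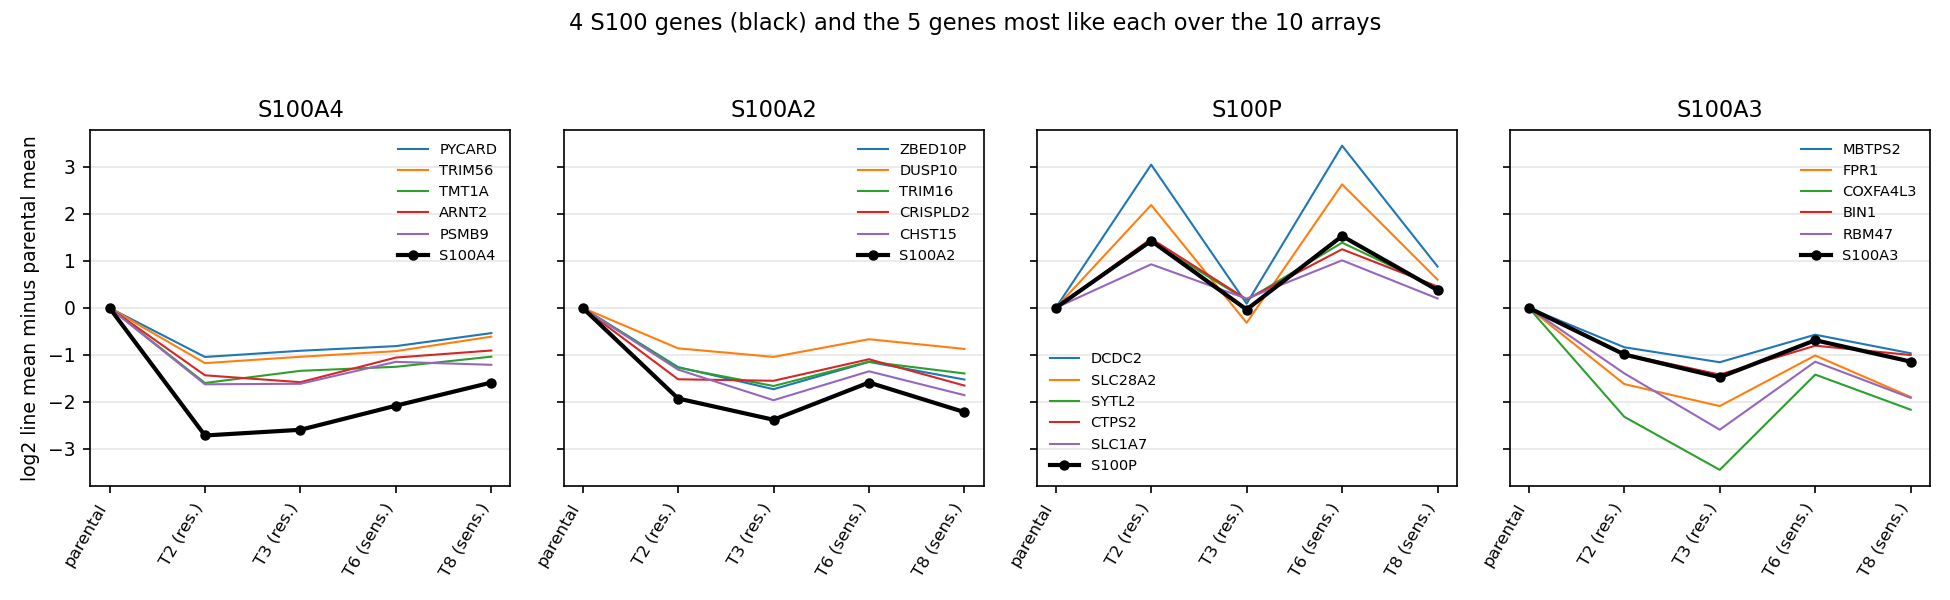
Line means minus the parental mean (vertical axis, log2) by line (horizontal axis) for S100A4, S100A2, S100P and S100A3 (black) and the 5 genes most like each over the 10 arrays. The genes around S100P rise in T2 and T6, and those around the other 3 lie below 0 in every tumour.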

How the data were processed

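RNA of 10 samples, 2 per line, was hybridised to Affymetrix arrays. The authors deposited log2 expression values for 54675 probe sets; RMA, affy and limma are named in the submitters' processing notes, with versions and order not given in the sources used here. RMA estimates and removes background and brings the arrays towards a common distribution. The deposited arrays still differed, with medians from 5.43 to 5.57. A shift of all genes at once therefore cannot be told from scaling, and small differences depend on it. Probe sets were named from the platform annotation, updated through RefSeq (GRCh38.p14): 41091 had 1 symbol, 1801 several and 11721 none, and 62 controls were left out. Loricrin was matched under its current symbol.

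The probe set with the highest mean stood for its gene. Genes at log2 5 or more on at least 2 arrays (14929) were fitted with limma 3.58.1 in R 4.3.3 (lmFit, eBayes with trend, 1 coefficient per line) with Benjamini-Hochberg adjustment, and member probe sets in a like fit over 33341. For response, line means were fitted with the tumour as replicate. The number of arrays limits the precision. On simulated data for the tumours against parental, 100% of changes of log2 1 were recovered, 67.5% of those of -0.5 and 75% of those of 0.5. At each size 40 of 14929 genes were changed, with noise independent between arrays. In the data 42.3% of genes were called, so these rates need not carry over.

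The members and lists were chosen with earlier results of these data known. All members were named. From each list the up to 3 called genes per direction with the largest mean difference were named, or the 2 largest where none was called. The line markers were all named, as were the 5 genes most like each of the 4 widest-ranging members. Known partners, adjoining genes and unmeasured levels beyond that were named for their role after values were seen. The labels do not say that a replicate number marks a shared batch, so numbers were not taken as pairs. Deviations of same-numbered arrays of different lines correlated between -0.387 and 0.502. Of 10 pairs of lines 4 lay above 0.1, with T2 and T3 highest, so arrays of different lines may share deviations. Alternatives changed filter, normalisation, probe set rule, variance trend, replicate block and single arrays.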

Additional observations from a re-analysis of the deposited data

Results flagged for a closer look

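For 7 of the 9 tested members the change from parental cells differed among the 4 tumours by the moderated F test of limma over the arrays. Of all genes tested, 41.7% were called by this test. The adjusted p was 5.89e-08 for S100P, 6.92e-08 for S100A4 and 4.10e-06 for S100A2. It was 0.000141 for S100A3, 0.000217 for S100A10, 0.00442 for S100A13 and 0.0117 for S100A6. The second S100A10 probe set also differed among tumours (0.00422 over probe sets), and the second S100A6 and S100A13 probe sets were not called (0.306 and 0.487).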

How the results depend on the processing

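Differences of the tumour mean from parental cells in the 9 tested members kept their direction under 18 alternatives. S100A2, S100A3, S100A4, S100A6 and S100P stayed called in every one that gave a value; leaving out less specific probe sets removed S100A4's only probe set and gave none. The other counts of called members stayed within 1.5 times, but median centring left 5 members called in the tumour mean, against 38.2% of all genes. Leaving out single arrays moved the T6 against T8 count between 3 and 5. Resistant minus sensitive over arrays, differences not called as deposited changed sign: S100A13 to -0.031 under median centring and S100A6 to -0.029 with probe sets averaged. Single arrays moved S100A11 between -0.073 and 0.034, S100A13 between -0.015 and 0.026, and S100A14 between -0.16 and 0.059. The cause was not tested. All-gene counts fell from 6314 to 4099 in the tumour mean without parental replicate 2, where fewer arrays were fitted, and from 2837 to between 1389 and 1582 in the response comparison without T3 replicate 1, either T6 array or T8 replicate 1. T6 against T8 fell from 2253 to 1372 under median centring and to 1494 without the less specific probe sets, where fewer genes were tested. With the replicate block, 8 members were called in the tumour mean, against 40.5% of all genes. In the response comparison over arrays 3 were called, against 16.7% of all genes, S100P losing its call (adjusted p = 0.0509). This pairing changed no other member's call in either of these comparisons. S100A8 was not tested because it lay below log2 5 on every array.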
